A study of Homo sapiens with 2 samples.

Results

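The clustered protocadherin locus on human chromosome 5 was examined in H3K4me3 peak lists from HEC-1-B, an established endometrial adenocarcinoma line that the sample labels describe as uterine adenocarcinoma cells. One ChIP-seq library came from wild-type cells and one from ZNF143 knockout cells, so each genotype was represented by 1 library and no difference given here has a replicate check. Both libraries used the same H3K4me3 antibody and the same culture medium, and no treatment is labelled. How many knockout clones were used is not given in the sources used here. The regions were taken by position: every called region on chr5:140160000-140900000 in hg19 coordinates, with an alpha window from 140160000 to 140400000, a beta window from 140425000 to 140630000 and a gamma window from 140700000 to 140900000. This gave 18 of the 20567 regions of the wild-type list and 20 of the 20509 regions of the knockout list. The rule is one of position and uses no signal value, but the locus was picked with earlier results of these data known.

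The locus holds 53 protocadherin genes: 13 variable and 2 C-type genes in the alpha cluster, 16 genes in the beta cluster, and 19 variable and 3 C-type genes in the gamma cluster. Clustered protocadherins are cell-surface adhesion proteins of the cadherin family, best known in neurons, where each cell expresses its own subset and so carries a surface identity. In the alpha and gamma clusters every variable exon has its own promoter and is spliced to constant exons at the far end of the cluster, while beta genes have single coding exons and no constant exons. C-type exons lie next to the constant exons and are used more uniformly between neurons than the variable ones. Most variable promoters carry a conserved sequence element that the insulator protein CTCF can bind, and CTCF and cohesin bring chosen promoters to distal enhancers. H3K4me3 is a histone mark concentrated at active promoters and at CpG islands. ZNF143 is a zinc-finger factor that binds promoters and often lies near CTCF sites.

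An hg19 gene annotation was not used here, so a region could not be tied to one exon and it was not checked whether each region lies at a promoter. Regions are therefore called by their cluster and a letter that follows their order along the chromosome (alpha-a, alpha-b and so on). The letters are not gene names. In the RefSeq gene table of another build, GRCh38.p14, which was used for names and order only, all 53 genes were found. Along the chromosome the alpha variable genes came first, then PCDHAC1 and PCDHAC2, the beta genes, the gamma variable genes and, last, PCDHGC3, PCDHGC4 and PCDHGC5. The 2 other protein-coding genes in this stretch, SLC25A2 (a mitochondrial carrier) and TAF7 (a subunit of the general transcription factor TFIID), stood between the beta and gamma genes. For the same reason, the edited gene and the markers of the cell type were not checked.

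The promoter sequences themselves were available by gene name. RefSeq windows of 300 bases were matched for 47 of the 53 genes, in 52 windows because 5 genes had several. Each held 250 bases before and 50 after an annotated start (GRCh38.p14, plus strand of chromosome 5). PCDHA3, PCDHA13, PCDHB6, PCDHB11, PCDHGA12 and PCDHGC5 had no window. The conserved element is shown here because it is the feature that the promoters of the family share. Capitals mark its CGCT box. For each cluster the first 3 genes along the chromosome that held the longer form of the box are given.
PCDHA1: ttacattggccacatgatgtCGCTgtacac
PCDHA2: tccttttagccacatgatgtCGCTgtccac
PCDHA4: ggtttggagccacatgatgtCGCTctttac
PCDHB2: tcggaagagacgcggggtggCGCTgcagcc
PCDHB3: tgcaagcgaacgcatggtggCGCTgttgac
PCDHB4: tcaatcaagacgcagggtggCGCTgcaggc
PCDHGA1: ctggttaggactgtgggcgcCGCTgttcac
PCDHGA2: ttatttaggcctctgagcgtCGCTgttgac
PCDHGA3: acggttaggcctcttagtgtCGCTgttgac
The letters around the box were not evenly distributed over the clusters. The string TGTCGCT was found in 10 of 11 alpha variable windows, TGGCGCT in 13 of 14 beta windows and CGCTGTT in 14 of 22 gamma variable windows. Among all 35116 promoter windows of the table these strings were found in 1.76%, 4.08% and 2.26%. None was limited to its cluster: among the 22 gamma variable windows 3 held TGTCGCT and 4 held TGGCGCT, and 1 beta window each held TGTCGCT and CGCTGTT. The strings were chosen after the sequences had been read, all contain CGCT, and every search covered both strands. The short box alone was in 51 of the 52 protocadherin windows (not in that of PCDHA9) and in 70.0% of all windows.

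C-type promoters are shown for contrast, each at the CGCT match whose surroundings were most like the variable promoters.
PCDHAC1: ttaagcctagaaggtgtggtCGCTcacgtt
PCDHAC2: gaggctgagcagtccgggttCGCTgtccgc
PCDHGC3: ttggctgggactctgtgtgcCGCTgtcggc
PCDHGC4: tattggctgagcccgggagcCGCTgtctgc
The 5 C-type windows came from these genes, PCDHGC4 having several, and PCDHGC5 had no window. None of the 5 held TGTCGCT or CGCTGTT, and 1 held TGGCGCT. A ZNF143 core, ACTACA, was found in 4 of the 52 protocadherin windows (7.69%), those of PCDHGB4, PCDHGB5, PCDHGA9 and PCDHGA10, and in 8.46% of all windows. A CTCF-like core, CCACNAGG, was in 2 protocadherin windows and in 4.93% of all windows. A TATA box, TATAAA, was in 6 protocadherin windows, or 11.5%, and in 11.5% of all windows. These matches describe letters in the windows and do not show binding.

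The promoter windows also differed in CG dinucleotides, the substrate of CpG islands. The alpha variable windows held 3 to 9 CG with a median of 7, and the beta windows 5 to 12 with a median of 7.5. Gamma variable windows ranged from 2 to 25 with the same median of 7.5. The median of all windows in the table was 14, and 42 of the 52 protocadherin windows lay below it. The C-type windows matched were all above it, with 15 and 27 CG at the alpha genes and 18 to 24 at PCDHGC3 and PCDHGC4. The extremes of the 52 windows were PCDHAC1 with 27 CG and PCDHGA4 with 2. Their 250 bases before the annotated start show the contrast, with CG in capitals.
PCDHAC1: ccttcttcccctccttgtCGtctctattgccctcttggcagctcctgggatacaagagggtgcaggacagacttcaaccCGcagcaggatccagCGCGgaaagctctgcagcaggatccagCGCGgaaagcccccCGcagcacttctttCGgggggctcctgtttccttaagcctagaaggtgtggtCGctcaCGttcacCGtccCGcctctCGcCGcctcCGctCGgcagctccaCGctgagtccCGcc
PCDHGA4: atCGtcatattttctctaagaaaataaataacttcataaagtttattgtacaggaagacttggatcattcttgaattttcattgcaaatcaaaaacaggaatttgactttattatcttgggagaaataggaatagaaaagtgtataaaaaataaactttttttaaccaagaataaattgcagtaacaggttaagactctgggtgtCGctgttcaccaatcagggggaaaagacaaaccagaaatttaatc

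**Figure D1:**
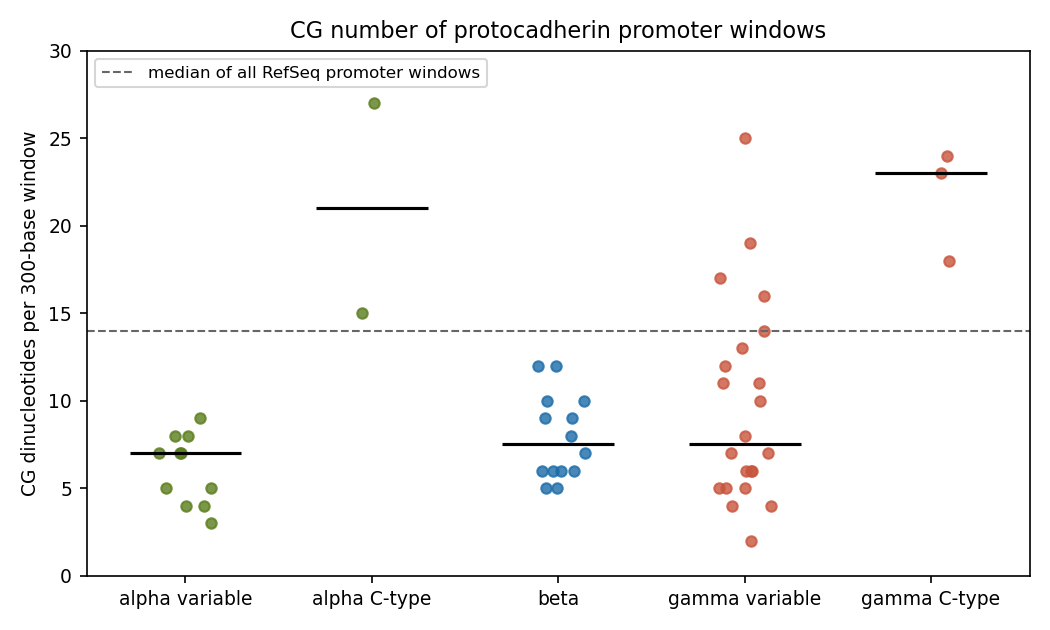
CG dinucleotides per 300-base RefSeq promoter window (vertical axis) for the 5 classes of clustered protocadherin promoters; each point is 1 window, black bars are class medians and the dashed line is the median of all windows, 14. Windows of the alpha variable and beta genes all lie below the line and C-type windows all lie above it.

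The depth of the libraries bears on every value below. The summit pileup, which counts the fragments covering the highest point of a region, was solved from the fold and p values that the authors deposited. Over the assembled chromosomes its median was 197 fragments in wild type and 355 in the knockout. The lowest local background rate of a list was 1.40 fragments per base in wild type and 3.25 in the knockout, a ratio of 2.31, and the median ratio of pileups over 16501 one-to-one pairs of overlapping regions was 1.86. Pileup ratios are therefore given relative to that median pair. Fold is the pileup plus 1 over the local rate plus 1, as the authors' peak caller gave it, and percentiles rank a region among all regions of its own list. Intervals of pileups and pileup ratios are 95% Poisson or exact binomial intervals that cover counting error only.

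All 18 wild-type regions of the locus overlapped exactly 1 knockout region, and 2 knockout regions had no wild-type partner. Over the whole wild-type list 5.53% of regions overlapped none, so 0 of 18 is near the background. With 0 of 18 unshared, an unshared share of up to 16.7% is allowed by the approximation of 3 over the number of regions. The exact binomial interval of the shared share ran from 81.5% to 100%. Both limits treat regions as independent draws, although they are all the regions of 1 stretch in 1 library. They do not measure spread between libraries. The alpha window held 7 regions in each list. The beta window held 5 regions in wild type and 6 in the knockout, and so did the gamma window. One further region lay between the alpha and beta windows in both lists. The 2 regions called in the knockout list alone, beta-f and gamma-b, made up 10% of its 20 regions, near the 9.67% of all knockout regions that overlapped no wild-type region. Fewer regions than genes were called in every cluster: 7 regions for 15 alpha genes, 5 or 6 for 16 beta genes and 5 or 6 for 22 gamma genes.

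Marked positions were scattered and not contiguous. Summits in the alpha window lay between 13.3 and 51.3 kb apart in wild type, with a median distance of 34.6 kb. In the beta window the wild-type distances ran from 15.9 to 49.7 kb with a median of 24.7 kb. The gamma window had the most uneven spacing, with gamma-c, gamma-d and gamma-e within 10.0 and 4.83 kb of each other and stretches of 67.4 kb before and 73.2 kb after them. In the knockout list gamma-b divided the first of these stretches into 29.6 and 37.9 kb, and beta-f lay 23.7 kb beyond beta-e. The median distance between neighbouring summits over the whole wild-type list was 43.2 kb. Regions were denser in the locus than over the list, at 24.3 per Mb in wild type and 27.0 in the knockout. The lists had 6.58 and 6.53 per Mb over the assembled chromosomes, and 4.86 and 4.79 along chromosome 5. The locus was drawn around gene clusters, and stretches of like gene density were not compared. Called bases made up 1.46% of the locus in wild type and 1.77% in the knockout. Summits of paired regions coincided closely, with a median displacement of 17 bp over the 18 pairs and 18 bp over all pairs. The largest displacement, 327 bp, was at alpha-g.

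**Figure D2:**
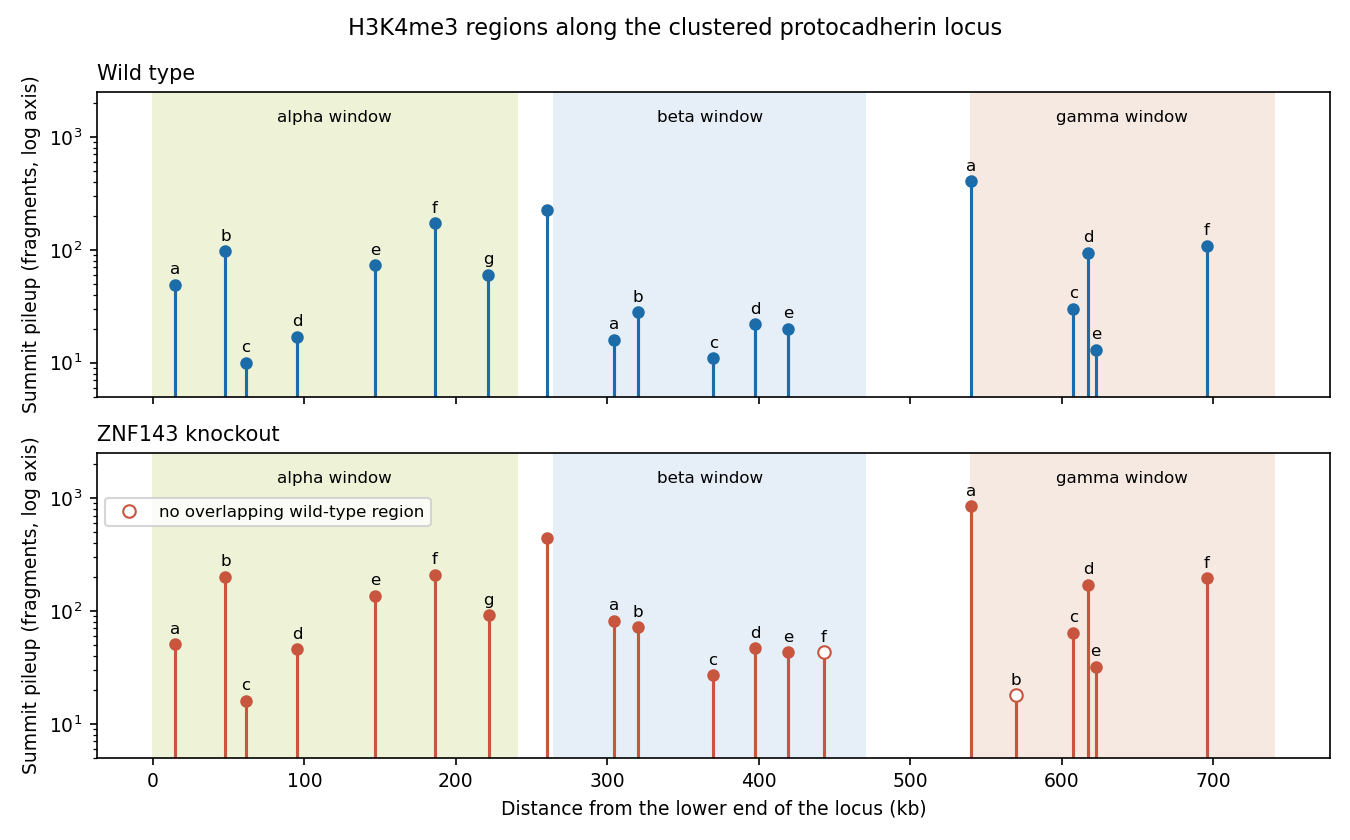
Summit pileup in fragments (vertical log axis) of each called region against its distance in kb from the lower end of the locus, with wild type above and ZNF143 knockout below and the cluster windows shaded. Letters give the order of the regions within a window; the unlettered stem lies between the alpha and beta windows, and open circles are beta-f and gamma-b, which no wild-type region overlapped.

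The alpha window began with 4 regions of unequal strength. Alpha-a, at chr5:140174431-140174947 in the wild-type list, had a pileup of 49 fragments in wild type and 51 in the knockout. Its fold was 17.0 and 11.4, which placed it at the 82.4 percentile of the wild-type list and at 50.9 in the knockout list. Relative to the median pair the pileup was 0.560 times as high in the knockout (interval 0.371 to 0.846), the lowest value of the locus. Alpha-b, at chr5:140207525-140208124, had 97 and 201 fragments and folds of 16.6 and 16.7. It kept a similar rank, at the 80.5 and 83.1 percentiles. Alpha-c, at chr5:140221039-140221223, was the weakest of the cluster in both genotypes, with 10 and 16 fragments and folds of 4.58 and 4.00. Alpha-d, at chr5:140254920-140255256, had 17 and 46 fragments, and its fold of 7.49 in wild type and 11.1 in the knockout moved it from the 27.3 to the 48.8 percentile. Its pileup was 1.46 times the median pair, with an interval from 0.819 to 2.71 that includes 1.

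Wide regions followed toward the far end of the alpha window. Alpha-e, at chr5:140305933-140306936, spanned 1004 bp in wild type and 1143 bp in the knockout. It had 73 and 137 fragments, and its fold stood at the 63.0 and 63.2 percentiles. Alpha-f, at chr5:140345509-140346584, spanned 1076 and 1131 bp and was the strongest of the alpha window, with 171 and 209 fragments. Its fold was 17.3 in wild type and 13.9 in the knockout, at the 83.7 and 67.6 percentiles. Relative to the median pair its pileup was 0.657 times as high in the knockout (interval 0.535 to 0.810). Alpha-g, at chr5:140380997-140381916, spanned 920 and 977 bp with 60 and 92 fragments and stood near the middle of both lists, at the 52.1 and 48.6 percentiles by fold. Each of these 3 regions was wider than any of the 4 before it in the same list.

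A strong region outside the 3 windows lay between the alpha and beta genes, at chr5:140419571-140420720. It spanned 1150 bp in wild type and 1093 bp in the knockout and had 225 and 443 fragments. The fold was 18.2 and 18.5, at the 86.8 and 89.9 percentiles, and the pileup was 1.06 times the median pair (interval 0.900 to 1.25). Whether it lies at a promoter or at another element was not tested.

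Beta regions were weak in wild type and stood higher in the knockout list. The 5 wild-type regions had pileups of 11 to 28 fragments and a median fold percentile of 33.9. All of them had the genome background as their local rate. Beta-a, at chr5:140464280-140464541, had the largest pileup ratio and the largest percentile difference of the locus, with 16 fragments in wild type and 82 in the knockout. Its fold was 7.07 and 17.0, at the 25.2 and 84.6 percentiles, and its −log10 q was 10.2 and 74.9. The pileup was 2.76 times the median pair, with an interval from 1.60 to 5.05. Beta-a was also wider in the knockout list, 463 bp against 262 bp.

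The other beta regions also had higher fold percentiles in the knockout, by smaller differences. Beta-b, at chr5:140480047-140480523, was the strongest of the cluster in wild type, with 28 fragments against 72 in the knockout and fold percentiles of 54.0 and 74.9. Beta-c, at chr5:140529675-140530039, had 11 and 27 fragments and percentiles of 13.0 and 24.6. Beta-d, at chr5:140557386-140557664, had 22 and 47 fragments, and beta-e, at chr5:140579186-140579707, had 20 and 43. Their fold percentiles were 11.9 and 10.2 points higher in the knockout. For these 4 regions the pileup lay between 1.15 and 1.38 times the median pair, and every interval included 1, so a change was not detectable at this depth.

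Beta-f, at chr5:140602889-140603228, was called in the knockout list alone. It had 43 fragments (interval 31.1 to 57.9), a fold of 10.4 at the 44.1 percentile and a −log10 q of 30.9, the same pileup as beta-e. Divided by the ratio of the background rates, this is 19 fragments, with a −log10 p of 16.0 at the correspondingly scaled rate. The weakest region of the wild-type list had a −log10 p of 3.74. The wild-type signal at this position is not in a peak list and was not measured here.

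In the gamma window the strongest region lay at the edge. Gamma-a, at chr5:140699634-140700923, crossed the lower end of the window, with its summit inside. Its pileup was 407 fragments in wild type and 851 in the knockout, the highest of the locus in both lists, and its fold stood at the 89.6 and 92.0 percentiles. Because SLC25A2 and TAF7 lie between the beta and gamma genes, whether gamma-a belongs to a protocadherin promoter is not known here. Gamma-b, at chr5:140729657-140729906, was called in the knockout list alone, with 18 fragments (interval 10.7 to 28.4), a fold of 4.47 and a −log10 q of 6.43. Scaled to the wild-type depth it had 8 fragments and a −log10 p of 4.78, also set beside the 3.74 of the weakest wild-type region. The wild-type signal here was not measured either.

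A tight group of 3 regions followed. Gamma-c, at chr5:140767470-140767765, had 30 and 64 fragments, and its fold of 12.9 and 15.3 placed it at the 59.4 and 76.1 percentiles. Gamma-d, at chr5:140777484-140777970, had the highest fold of the locus in both genotypes, 22.9 and 20.6, at the 97.0 and 95.2 percentiles, although its pileup of 94 and 171 fragments was moderate. Gamma-e, at chr5:140782429-140782709, was the opposite case in the same group, with 13 and 32 fragments and the lowest folds of the locus, 3.49 and 3.99. Neighbouring marked positions thus differed in fold by several times within each library. The local rate was raised at gamma-e, at 3.01 and 7.26 fragments per base, and at gamma-d, at 3.16 and 7.33. At gamma-c it was 1.40 and 3.25. Alpha-c, with the same rates as gamma-c, had 10 and 16 fragments, fewer than gamma-e, but higher folds of 4.58 and 4.00. The order by fold is therefore not the order by pileup. The last region, gamma-f at chr5:140855422-140856206, stood apart by distance and spanned 785 and 924 bp. It had 109 and 195 fragments and fold percentiles of 77.4 and 79.9, and its pileup was 0.962 times the median pair (interval 0.757 to 1.23).

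**Figure D3:**
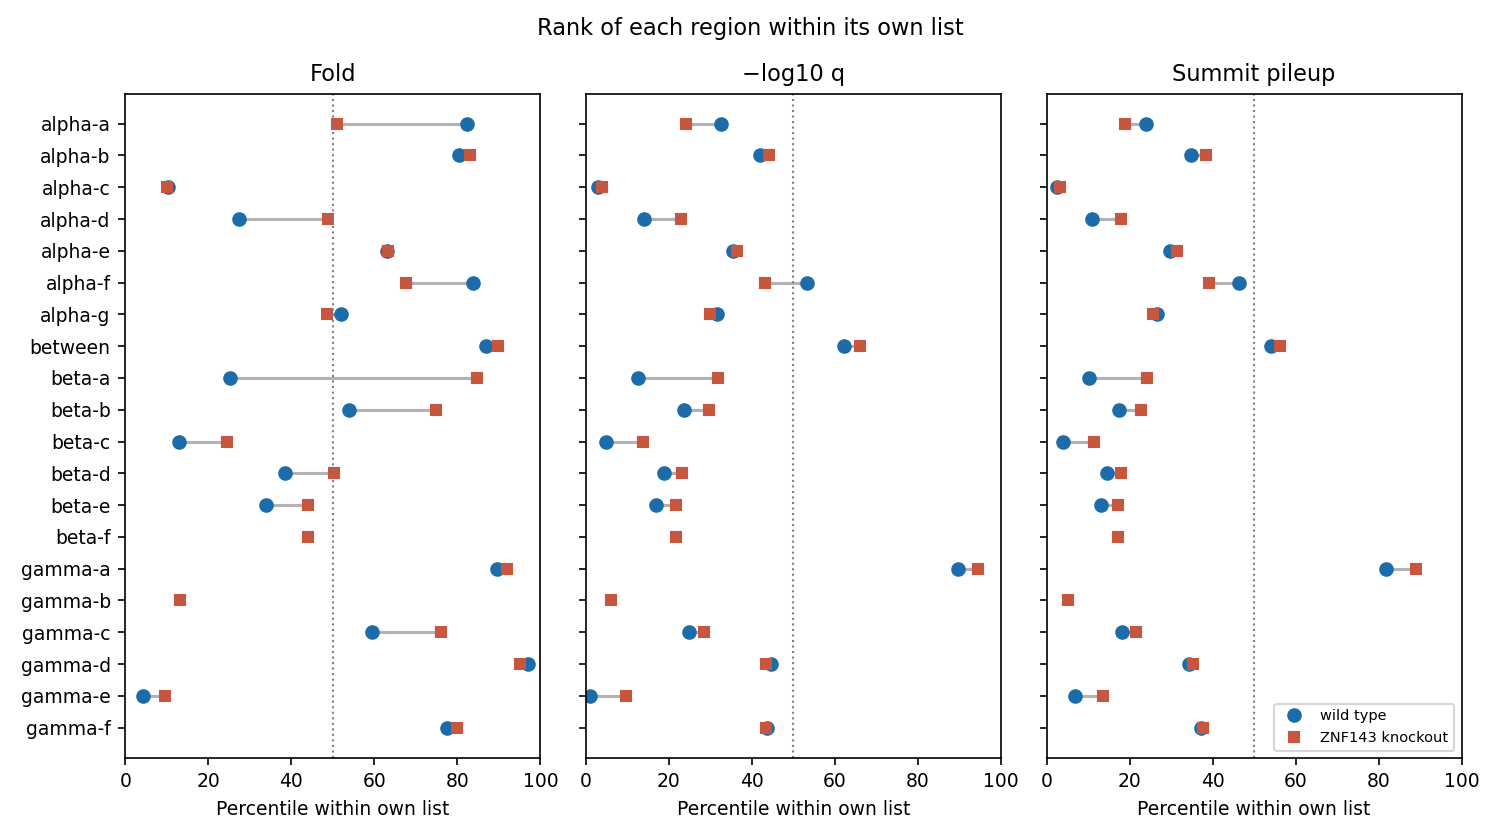
Percentile of each region (rows) within its own list by fold, −log10 q and summit pileup (panels, horizontal axes from 0 to 100), with circles for wild type and squares for ZNF143 knockout. The longest line is beta-a by fold, from 25.2 to 84.6, and most regions stand lower by q and by pileup than by fold.

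Rank depended on the column used, in the same way in both genotypes. The median fold percentile of the locus was 56.7 in wild type and 57.1 in the knockout. By −log10 q the medians were 28.2 and 29.0, and by pileup 21.0 and 22.2. The regions of the locus, gamma-a and the one between alpha and beta included, thus stood near the middle of each list by fold and in its lower part by the number of fragments. Without these 2 regions the median fold percentiles were 53.0 and 50.7. Beta regions were the lowest of the 3 clusters by pileup, with medians at the 13.2 percentile in wild type and 17.6 in the knockout. Alpha regions had medians of 26.5 and 25.7, and gamma regions of 34.3 and 28.4. Without gamma-a the gamma medians were 26.2 and 21.6, below those of alpha, so the order of alpha and gamma by pileup rests on that region. By fold the medians were 63.0 (alpha), 33.9 (beta) and 77.4 (gamma) in wild type, and 50.9, 47.3 and 78.0 in the knockout. Without gamma-a the gamma medians by fold were 68.4 and 76.1, still above those of alpha. By −log10 q the clusters had medians of 32.6 (alpha), 16.9 (beta) and 43.5 (gamma) in wild type, and of 29.8, 22.4 and 35.9 in the knockout. Without gamma-a the gamma medians by −log10 q were 34.2 and 28.5, the latter below alpha. Above the 50 percentile by pileup stood only gamma-a and the region between alpha and beta, in both lists.

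The differences between genotypes were then set against the background of all pairs. The fold percentile was over 10 points higher in the knockout for 7 of the 18 pairs, against 8.9% of all pairs, and over 10 points lower for 2, against 9.44%. All 5 beta pairs were among the 7, with alpha-d and gamma-c, and the 2 lower ones were alpha-a and alpha-f. Ranks of weak regions move more, which is relevant to the beta cluster. Among the 2001 pairs with a wild-type pileup from 11 to 28 fragments, 28.1% were over 10 points higher in the knockout. Their median fold shift was 0.51 points. Fold has 1 added to pileup and rate, so at a low rate it also varies with depth. Divided by the ratio of background rates, the knockout pileups of beta-d, beta-e and gamma-c were 20, 19 and 28 fragments. These were below the wild-type 22, 20 and 30. Those of beta-a, beta-b, beta-c and alpha-d were 35, 31, 12 and 20, above the wild-type 16, 28, 11 and 17. The part of depth in the fold differences was not tested. For pairs within the wild-type pileup range of the whole locus, 10.5% were over 10 points higher and 10.5% over 10 points lower. Ranked by pileup, the 5 beta pairs differed by 3.56 to 14.01 points and the 7 alpha pairs by −7.42 to 6.76 points. No test between genotypes was made, and pairs from 1 library each are not replicates.

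By pileup ratio, 1 of the 18 pairs was over 1.5 times above the median pair (beta-a), against 7.11% of all pairs, and 2 were over 1.5 times below it (alpha-a and alpha-f), against 6.45%. Within the pileup range of the locus the corresponding shares were 8.59% and 7.69%. The same 3 pairs were those whose counting intervals did not include the median pair. How many of all pairs have such intervals was not computed, so this count has no background beside it. All 5 beta pairs lay above the median pair, as did 3 of 7 alpha pairs and 3 of 5 gamma pairs, against 50% of all pairs and 46.2% of the pairs in the pileup range of the beta regions. The median log2 ratio relative to the median pair was −0.22 in the alpha window, 0.40 in the beta window and 0.17 in the gamma window. Taking the ratio of the background rates as the reference in place of the median pair shifts each of these by −0.32, and the gamma median then has the opposite sign, −0.15. With that reference only 3 of 5 beta pairs lay above it (beta-a, beta-b and beta-c), with 1 of 7 alpha pairs and 1 of 5 gamma pairs, so the shared direction of the beta pairs depends on the centring. The 73 pairs within 5 Mb of the locus had a median of −0.01 relative to the median pair. It was 0.05 on the lower side and −0.03 on the upper side. These pairs were not matched in pileup to the beta regions. Their middle 50% ran from −0.12 to 0.15, against −0.48 to 0.45 for all pairs in the pileup range of the beta regions.

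**Figure D4:**
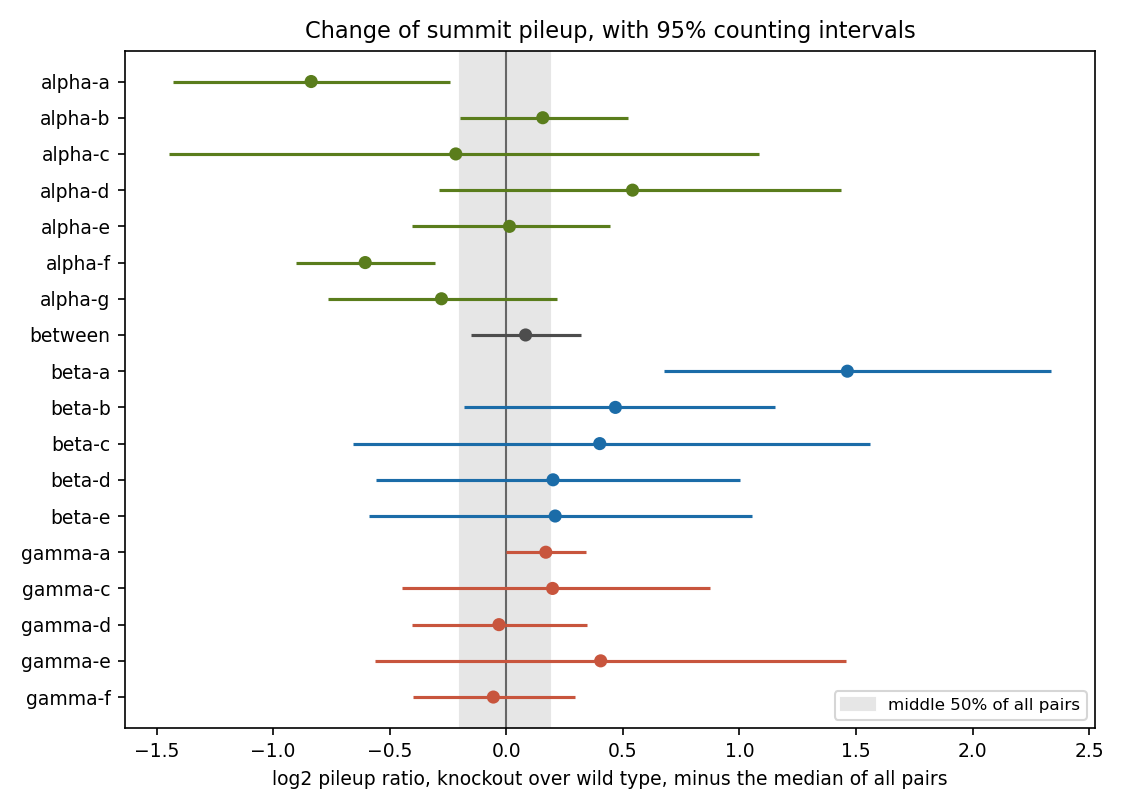
Change of summit pileup for the 18 paired regions (rows), as log2 of knockout over wild type minus the median of all pairs (horizontal axis); lines are 95% counting intervals from 1 library per genotype and the grey band is the middle 50% of all pairs. The intervals of alpha-a and alpha-f lie below 0 and that of beta-a lies above it, while the other 15 include 0. The share of all pairs whose intervals exclude 0 was not computed.

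Local background rates are given for the pairs over 1.5 times above or below the median pair. At alpha-a the recovered rate was 1.93 fragments per base in wild type and 3.57 in the knockout, and at alpha-f it was 8.92 and 14.1. The rate at beta-a was 1.40 and 3.87. The log2 rate ratios were 0.88, 0.66 and 1.46, against a median of 1.21 over the pairs of the locus. The median log2 pileup ratio of all pairs was 0.89. Whether the local rate is independent of the signal of its region was not tested. In the wild-type list 8 of the 18 regions had the genome background as their local rate (13.3% of the whole list), and in the knockout list 8 of 20 (14.5%). Within 1 list, fold and pileup carry the same information for such regions.

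Regions of the locus were narrow. The median width was 502 bp in wild type and 540.5 bp in the knockout, against 883 and 1003 bp over the lists. Beta regions had median widths of 365 and 417 bp and alpha regions of 600 and 899 bp. Width ran from 185 bp at alpha-c to 1290 bp at gamma-a in wild type, and from 184 to 1431 bp at the same 2 regions in the knockout. The knockout region was the wider in 15 of the 18 pairs, against 82.2% of all pairs, and the exceptions were alpha-c, beta-e and the region between alpha and beta. In bp, alpha-b had the largest width difference of the locus, 600 in wild type against 899 in the knockout. The median ratio of widths was 1.16 in the locus, 1.06 over all pairs and 1.18 over pairs in the pileup range of the beta regions. The knockout list also had the wider minimum width, 174 bp against 162 bp. The part of depth in the width differences was not tested, nor was the source of the difference in minimum width.

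**Figure D5:**
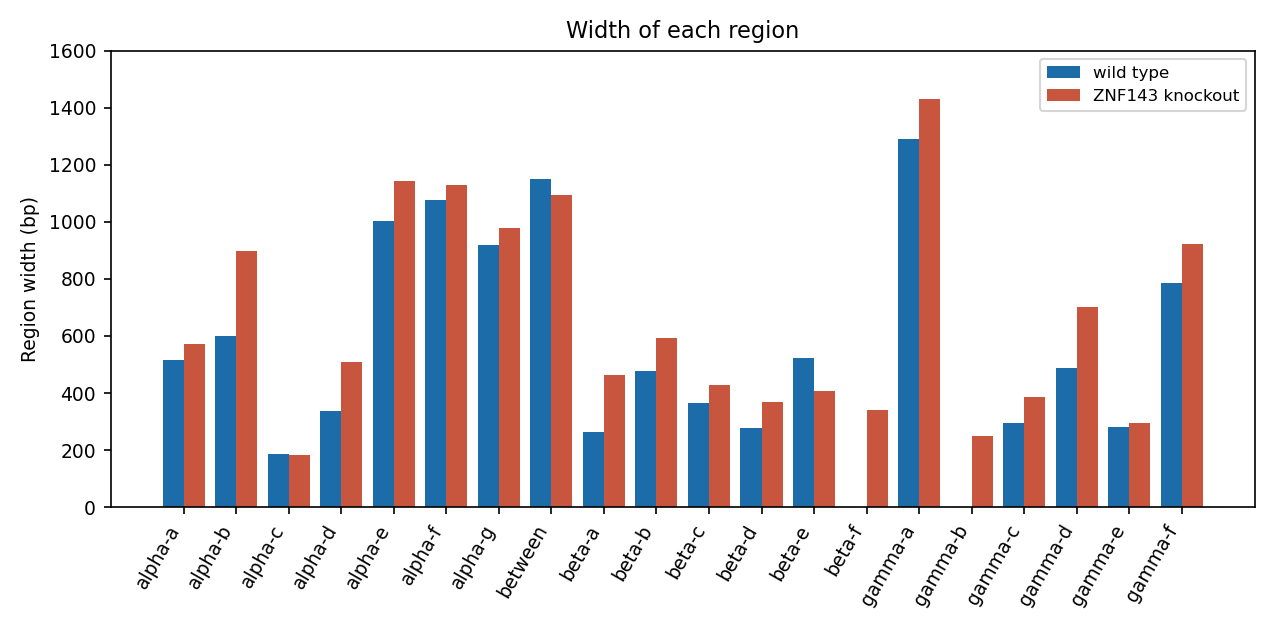
Width in bp (vertical axis, from 0) of each region in wild type (blue) and ZNF143 knockout (red), in order along the chromosome. Alpha-e, alpha-f, alpha-g, the region between alpha and beta, gamma-a and gamma-f are the widest in wild type, from 785 to 1290 bp; beta-f and gamma-b have a knockout bar only.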

How the data were processed

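H3K4me3 ChIP-seq was done on HEC-1-B cells, with 1 library per genotype grouped by the genotype label. Per the submitters' processing notes, Bowtie2, SAMtools 1.12, MACS2 and deepTools were used with GRCh37/hg19. Peak calling settings and a control library are not given in the sources used here. Each deposited list has 10 columns, no header and its own prefix in the peak names. The deposited fold (column 7, a ratio), the deposited −log10 p and −log10 q (columns 8 and 9) and the deposited score are the authors' own values. The score was not used further. No scaling between lists is stated, so fold and q were ranked within 1 list only, over chromosomes 1 to 22, X and Y.

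Pileup and local rate were solved from fold and −log10 p (Poisson upper tail, 1 added to both). The relative error of p was at most 1.76e-05 in wild type and 2.67e-05 in the knockout. The solver, pairing and ratios were tested on simulated data. Overlap meant at least 1 bp. The knockout list was also scaled by the ratio of background rates. Alternatives were −log10 q of at least 5, merging within 1 kb, 50% reciprocal overlap, other ranks and other centrings. Python 3.11.15, numpy 2.4.6, pandas 2.3.3 and scipy 1.17.1 were used. Every region of the windows is described, which was the rule for naming. The members, windows and lists were chosen with earlier results of these data known. The lists of architectural genes and cell markers were not used, because they need an hg19 annotation.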

Additional observations from a re-analysis of the deposited data

How the results depend on the processing

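No paired analysis was possible because wild type and knockout were each represented by a single library, so none could be left out. All 21 alternative counts of regions per window stayed within 1.5 times the reported count. At a −log10 q of at least 5, 16 of 19 knockout regions (84.2%) overlapped a wild-type region, and the other shared shares stayed at 100% and 90%. Median widths became 519.5 and 573 bp (wild type and knockout) at that limit. Median spacing within the windows, 33.6 kb in wild type and 31.3 kb in the knockout, became 33.5 and 31.4 kb between midpoints and 37.5 and 33.1 kb at that limit. The median percentile of the locus became 28.2 and 29.0 by −log10 q, 21.0 and 22.2 by pileup, 55.5 and 56.2 by fold within chromosome 5, and 53.0 and 50.7 without gamma-a and the region between alpha and beta. The median rank shift, 2.87 points by fold, became 3.66 by −log10 q, 3.51 by pileup and 3.99 without those 2 regions. Of 36 alternative rank shifts of single pairs, 26 were within 10 points of the shift by fold, 10 were smaller by more and 0 changed sign where the shift by fold exceeded 10 points.

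The median log2 pileup ratios of the alpha, beta and gamma windows became −0.21, 0.41 and 0.18 when centred on pairs within 5 Mb, and −0.23, 0.39 and 0.16 when centred on pairs in the pileup range of the locus. Centred on the ratio of background rates they became −0.53, 0.085 and −0.15, so the gamma value reversed, and 3 pairs in place of 2 were over 1.5 times lower. Pairs above the reference then numbered 1 of 7 (alpha), 3 of 5 (beta) and 1 of 5 (gamma), in place of 3, 5 and 3, which the other centrings left as they were. Without gamma-a the median pileup percentile of the gamma regions became 26.2 in wild type and 21.6 in the knockout. Centring on the ratio of background rates subtracts a larger constant from every pair. The centrings, and leaving out gamma-a alone or with the region between alpha and beta, were chosen after seeing the data. Depth limits the weak regions: the lowest pileup called was 7 fragments in wild type and 11 in the knockout.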

Other observations

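The nearest regions outside the locus were also recorded. On the lower side, 1 region was called in both lists, at chr5:140098004-140098449 in wild type, with 42 fragments there and 85 in the knockout, and with fold percentiles of 65.5 and 72.0. On the upper side, the nearest wild-type region lay at chr5:140905235-140905397 with 9 fragments, and the nearest knockout region at chr5:140940218-140940438 with 23 fragments.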
